A study of Homo sapiens with 6 samples.

Results

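The 10 genes described here encode the E2F transcription factors E2F1, E2F2, E2F3, E2F7 and E2F8, the pocket proteins RB1, RBL1 (p107) and RBL2 (p130), and the CDK inhibitors CDKN1B (p27) and CDKN2C (p18). They were taken by symbol from a table of 54261 gene symbols, and all 10 were found and passed the filter on low counts that left 14398 genes. Reads were counted in 786-O, a long-established cell line from a human clear cell kidney cancer, after the cells had received either control guide RNA with PHF8 left wild type (3 libraries) or guide RNA against PHF8, described as PHF8 knockout (3 libraries). Both groups were transfected with guide RNA for CRISPR-Cas9 and grown in the same serum-containing medium. Neither the use of 1 clone or a pool nor separate cultures for the 3 libraries of a group is given in the sources used here. The p-values therefore measure only how these libraries vary, and that variation may be technical. PHF8 is a histone demethylase that removes repressive methyl marks and has been reported in other cells to act with E2F1 at promoters of cell cycle genes; the comparison shows how transcripts of the E2F and RB network differ between the groups.

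In G1, D-type cyclins with CDK4 or CDK6, and then E-type cyclins with CDK2, phosphorylate the pocket proteins, which releases E2F factors from them. E2F1, E2F2 and E2F3 activate genes of DNA replication, E2F4 acts mostly as a repressor together with RBL1 or RBL2, and E2F7 and E2F8 repress E2F targets without binding a pocket protein. CDKN2C belongs to the INK4 inhibitors, which block CDK4 and CDK6, and CDKN1B to the CIP/KIP inhibitors, which block CDK2 complexes. Several of these genes are themselves E2F targets.

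RB1, RBL1 and E2F8 transcripts were at 35.9%, 44.4% and 45.6% of their control level in knockout cells. CDKN1B and CDKN2C fell by smaller amounts, E2F3 fell slightly and E2F1 rose slightly. E2F2, E2F7 and RBL2 did not pass the test. Of the 10 genes, 7 passed an adjusted p of 0.05 (1 higher, 6 lower) against a background of 59.7% of all tested genes, 28.9% higher and 30.8% lower, so the share called, 7 of 10, was near the background. Past 2-fold and called there were 3 lower genes and 0 higher, against 14.2% and 9.2% of tested genes. The median log2 fold change of the 10 genes was -0.43 and that of all tested genes -0.01. With an offset that accounts for the length and GC content of transcripts, 2 were higher and 5 lower, against 59.3% of tested genes called (30.9% higher, 28.4% lower). Past 2-fold and lower with the offset there were 0 of the 10 genes, against 7.89% of tested genes, and E2F8, RB1 and RBL1 lay at -0.88, -0.72 and -0.43 on the log2 scale. The groups did not overlap in 8 of the 10 genes, 2 higher and 6 lower, against 66.8% of tested genes (32.6% higher, 34.2% lower). In bulk RNA, fewer cells in a cell cycle phase and less transcript per cell cannot be told apart.

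The libraries held 21533615 to 29095133 counted reads. PHF8 itself had 36.6, 35.1 and 32.9 CPM (a gene's reads relative to the library's counted reads, with TMM library factors) in control libraries 1, 2 and 3 and 10.8, 6.74 and 12.8 CPM in knockout libraries 1, 2 and 3 (log2 fold change -1.78, SE 0.21; edgeR adjusted p = 1.19e-04). Kidney epithelial markers PAX8, KRT8, KRT18 and VIM were present in every library, whereas CA9 and AQP1 were under 1 CPM and LRP2 had 0 reads. Of 8 blood and immune markers 7 had 0 reads in all 6 libraries and their sum was 0.20 to 0.34 CPM in control and 0.25 to 0.32 CPM in knockout libraries. The 5 endothelial markers summed to 1.40 to 1.49 and 1.58 to 3.03 CPM, and the 5 fibroblast markers to 4.48 to 4.92 and 1.41 to 2.25 CPM. The size of trends in the fold changes along transcript length and GC content is not given here. The offset removes such trends in each library, and with it 7.89% of tested genes were called lower past 2-fold, against 14.2% without it. Its value is given for the 10 genes and for other named genes where it changed a call. It is also given where it moved the fold itself, not its log2, by over 1.5 times, and for some genes that moved less. Control library 1 stood apart from the other controls and knockout library 2 from the other knockout libraries (chi-square per degree of freedom 11.9 and 13.9, and 68.1 and 52.7, against 2.95 and 10.2 for the remaining pairs); their part in the results was not tested beyond leaving each out. By library totals alone the median of all tested genes moved to -0.18 log2.

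**Figure D1:**
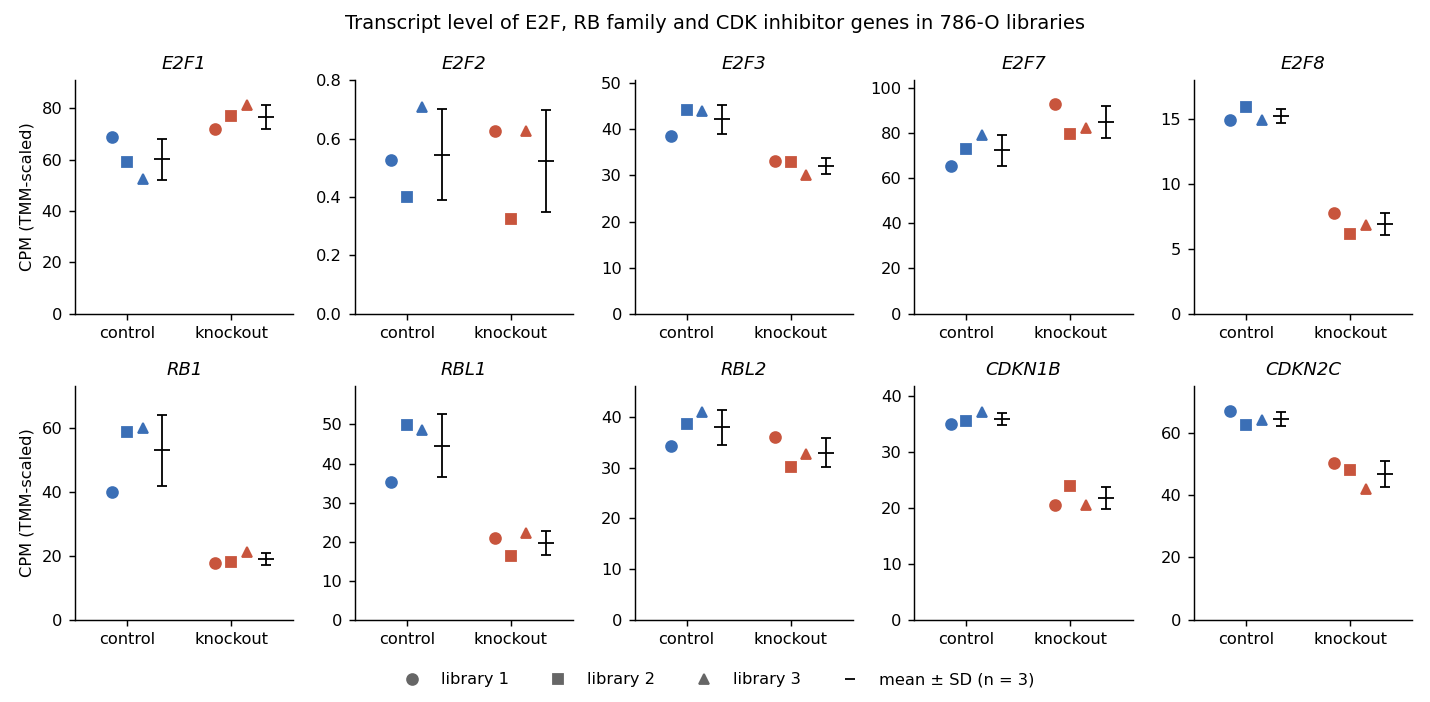
Transcript level (CPM, TMM-scaled, each axis from 0) of the 10 genes in each of 3 control and 3 knockout libraries, with mean ± SD (n = 3) beside the points. RB1, RBL1, E2F8, CDKN1B, CDKN2C and E2F3 lie lower in all 3 knockout libraries, E2F1 and E2F7 lie higher, and E2F2 and RBL2 overlap.

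Promoter sequence was examined for the letters that E2F factors bind. Of the 10 genes, E2F1, E2F2, E2F3, E2F7, E2F8, RBL1 and CDKN2C are in the list of G1/S targets of activating E2F used below. RefSeq windows on GRCh38.p14, from 250 bases before to 50 bases after a transcription start, were matched for 9 of the 10 genes (13 windows), all but E2F8. The 4 forms searched on both strands were TTTCCCGC, TTTCGCGC, TTTGCCGC and TTTGGCGC; none of them contains TTTGAA, the letters of the cell cycle homology region (CHR) bound by the DREAM complex, which were searched likewise. The 100 bases before the start are shown for the 4 genes with a match and for E2F7, which had none, 5′ to 3′ on the gene's strand, with E2F letters of either strand in capitals.
E2F1 (chr20:33686386-33686485, minus strand): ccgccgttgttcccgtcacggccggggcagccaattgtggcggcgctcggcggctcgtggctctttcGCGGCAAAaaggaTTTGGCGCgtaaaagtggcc
E2F2 (chr1:23531234-23531333, minus strand): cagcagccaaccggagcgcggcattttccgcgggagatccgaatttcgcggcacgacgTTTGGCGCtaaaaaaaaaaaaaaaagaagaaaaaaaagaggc
E2F3 (chr6:20401779-20401878, plus strand): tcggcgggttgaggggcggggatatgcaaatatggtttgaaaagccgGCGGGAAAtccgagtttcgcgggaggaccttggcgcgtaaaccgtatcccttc
RBL1 (chr20:37095998-37096097, minus strand): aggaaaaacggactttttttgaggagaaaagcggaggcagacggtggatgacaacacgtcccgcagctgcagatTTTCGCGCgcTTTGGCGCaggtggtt
E2F7 (chr12:77065570-77065669, minus strand): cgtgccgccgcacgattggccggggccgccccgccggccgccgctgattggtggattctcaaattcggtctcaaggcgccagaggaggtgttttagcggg

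The E2F1 window held TTTGCCGC on the opposite strand at positions -33 to -26 and TTTGGCGC at -20 to -13, counted from the transcription start. The RBL1 window held a like pair, TTTCGCGC at -26 to -19 and TTTGGCGC at -16 to -9. E2F2 held 1 match (TTTGGCGC at -42 to -35) and so did E2F3 at its upstream start (TTTCCCGC on the opposite strand at -53 to -46), with a CHR match at -65 to -60. The windows of E2F7, CDKN1B, RBL2 and CDKN2C held no E2F match, but an RBL2 window held a CHR match at 25 to 30. The RB1 window lies at a start 172706 bases inside the gene and is not shown. Over all 35116 windows 3.31% held an E2F match and 15.2% a CHR match. Over the 14605 windows of tested genes these were 4.82% and 10.4%. Of the 4 genes that share an E2F match, E2F1 rose, E2F3 and RBL1 fell and E2F2 did not pass the test, but with the offset RBL1 alone was called and E2F1 and E2F3 lay at -0.07 and -0.08 on the log2 scale. Among tested genes with a window, the 658 with an E2F match had a median log2 fold change of -0.07 (27.2% higher, 35.7% lower) and the 9341 without one had -0.05 (29.2% higher, 33.6% lower). A match of these letters is a description of the window and not a measured site.

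The activator E2F1 (chromosome 20, 33675477 to 33686385, minus strand, 7 exons in the canonical GENCODE transcript, GRCh38) had 68.7, 59.2 and 52.5 CPM in control libraries and 72.1, 76.9 and 81.4 CPM in knockout libraries. All 3 knockout libraries lay above the control libraries, with control library 1 the nearest to them. Its log2 fold change was 0.35 (SE 0.12; edgeR adjusted p = 0.0281), that is 1.28-fold. Leaving out control library 2 (adjusted p = 0.0822), control library 3 (0.109) or knockout library 3 (0.0916) ended the call, and so did scaling by library totals alone (log2 fold change 0.19, adjusted p = 0.201). Under the offset E2F1 lay at -0.07 (adjusted p = 0.528), and its adjusted p ran from 0.00879 to 0.582 over 17 alternatives.

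E2F3 (chromosome 6, 20401879 to 20493714), an activator with partly overlapping functions, had 38.5, 44.2 and 43.9 CPM in control and 33.2, 32.9 and 30.1 CPM in knockout libraries. The groups did not overlap, and the log2 fold change was -0.40 (SE 0.11; edgeR adjusted p = 0.0104). The call was lost without control library 2 (adjusted p = 0.0727) or 3 (0.0634), and with the offset the log2 fold change was -0.08 (adjusted p = 0.454). E2F2 (chromosome 1, 23506438 to 23531233), the third activator, was nearly absent, with 12, 10 and 19 reads in control and 15, 8 and 17 reads in knockout libraries. At 0.55 ± 0.16 CPM in control and 0.52 ± 0.17 CPM in knockout cells (SD, n = 3), a difference was not detectable at this depth (log2 fold change -0.06, SE 0.38; edgeR adjusted p = 0.899; -0.13 with the offset). Its sign turned without control library 3 (0.20) or knockout library 2 (0.19).

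Of the atypical repressors E2F7 and E2F8, which can pair with each other, E2F8 fell and E2F7 did not pass the test. E2F8 (chromosome 11, 19224063 to 19241620, 13 exons) had 14.9, 15.9 and 14.9 CPM in control and 7.79, 6.13 and 6.87 CPM in knockout libraries. Every knockout library held about the same low level, and the log2 fold change was -1.13 (SE 0.14; edgeR adjusted p = 1.54e-04), 45.6% of control. It was called in the same direction in all 17 alternatives other than the test against a 2-fold change itself, with log2 fold changes from -1.30 to -0.88. E2F7 (chromosome 12, 77021248 to 77065569, 13 exons) had 65.3, 73.0 and 79.0 CPM in control and 92.8, 79.7 and 82.1 CPM in knockout libraries. The gap between the groups was less than 1 CPM, and E2F7 did not pass (log2 fold change 0.23, SE 0.11; edgeR adjusted p = 0.0994). With the offset E2F7 was higher in knockout cells (log2 fold change 0.81, adjusted p = 1.58e-05), and without knockout library 2 it also passed (0.27, adjusted p = 0.0286). The ratio of E2F8 to E2F7, each per kilobase of canonical transcript, was 0.352, 0.335 and 0.291 in control and 0.130, 0.119 and 0.129 in knockout libraries. All 3 knockout ratios lay below the control ratios, a difference of -1.37 on the log2 scale, with p = 0.1 in a two-sided exact permutation test, the smallest that 3 libraries against 3 allow (adjusted p = 0.1 over 4 pairs). The difference between the fold changes of E2F8 and E2F7 was -1.36 without the offset and -1.69 with it.

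RB1, the founding pocket protein and a tumour suppressor (chromosome 13, 48303744 to 48599436, plus strand, 27 exons), had the lowest fold change of the 10 genes without the offset; with it E2F8 (-0.88) and CDKN1B (-0.75) lay below RB1 (-0.72). It had 40, 58.8 and 59.9 CPM in control and 17.7, 18.2 and 21.1 CPM in knockout libraries. Control library 1 was low among the controls but above every knockout library, and without it the log2 fold change was -1.62. The log2 fold change was -1.48 (SE 0.17; edgeR adjusted p = 1.05e-04), and 6.1% of tested genes had a lower value. RB1 was the only one of the 10 genes called in the test against a 2-fold change itself (adjusted p = 0.0261), in which 5.39% of tested genes were called lower. With the offset the fall was smaller (-0.72, adjusted p = 1.10e-04), and over 17 alternatives the log2 fold change ran from -1.65 to -0.72 with adjusted p at most 7.94e-04. No annotated exon of another gene overlaps the canonical exons of RB1; LPAR6, which lies in an intron on the other strand, had 20 reads in all control and 4 in all knockout libraries.

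RBL1 (chromosome 20, 36996349 to 37095997, minus strand, 22 exons), which encodes p107 and is itself an E2F target, had 35.3, 49.9 and 48.5 CPM in control and 20.9, 16.3 and 22.1 CPM in knockout libraries. The groups were well apart, and control library 1 was again the lowest control. The log2 fold change was -1.17 (SE 0.17; edgeR adjusted p = 3.61e-04), but -0.43 with the offset (adjusted p = 0.00623). RBL2 (chromosome 16, 53433977 to 53491648, plus strand, 22 exons), which encodes p130, the pocket protein of resting cells, had 34.2, 38.5 and 41.0 CPM in control and 36, 30.2 and 32.7 CPM in knockout libraries. These groups overlapped, and RBL2 did not pass (log2 fold change -0.20, SE 0.12; edgeR adjusted p = 0.167). It passed as lower by library totals alone (-0.37, adjusted p = 0.0215) and as higher with the offset (0.31, adjusted p = 0.00819). Canonical exons of RBL2 share 609 bases with AKTIP and 381 bases with an unnamed locus, both on the other strand. Those of RBL1 share 213 bases with another unnamed locus on the other strand. The strand setting of the counting is not given in the sources used here, so the origin of reads there is uncertain.

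The shares of all 3 pocket protein transcripts in their sum did not overlap between the groups. The shares depend on each other, because they are parts of the same sum. Of single tested genes 66.8% did not overlap, and no such background was computed for shares or ratios. Per kilobase of canonical transcript, RB1 made up 38.7%, 42.5% and 42.5% of the 3 genes' sum in control and 25.1%, 29.6% and 29.4% in knockout libraries. RBL2 made up 32.5%, 27.3% and 28.6% in control and 50.1%, 48.2% and 44.8% in knockout libraries, and RBL1 28.7%, 30.2% and 28.9% in control and 24.9%, 22.2% and 25.8% in knockout libraries. The most abundant pocket protein transcript was RB1 in every control library and RBL2 in every knockout library. The sum itself was 26.7 ± 4.43 CPM per kb in control and 14.3 ± 1.16 CPM per kb in knockout cells (SD, n = 3). The RB1 to RBL2 ratio was 1.41 ± 0.19 in control and 0.59 ± 0.081 in knockout cells, and the RBL1 to RBL2 ratio 0.999 ± 0.11 and 0.51 ± 0.059 (SD, n = 3; exact permutation p = 0.1 for each, the smallest possible). The fold change of RB1 lay below that of RBL2 by 1.28 without the offset and by 1.03 with it. The E2F1 to E2F3 ratio was also higher in every knockout library (4.07, 4.38 and 5.07) than in any control library (3.34, 2.51 and 2.24; exact permutation p = 0.1), but the difference between the fold changes of E2F1 and E2F3, 0.75 without the offset, was 0.02 with it.

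**Figure D2:**
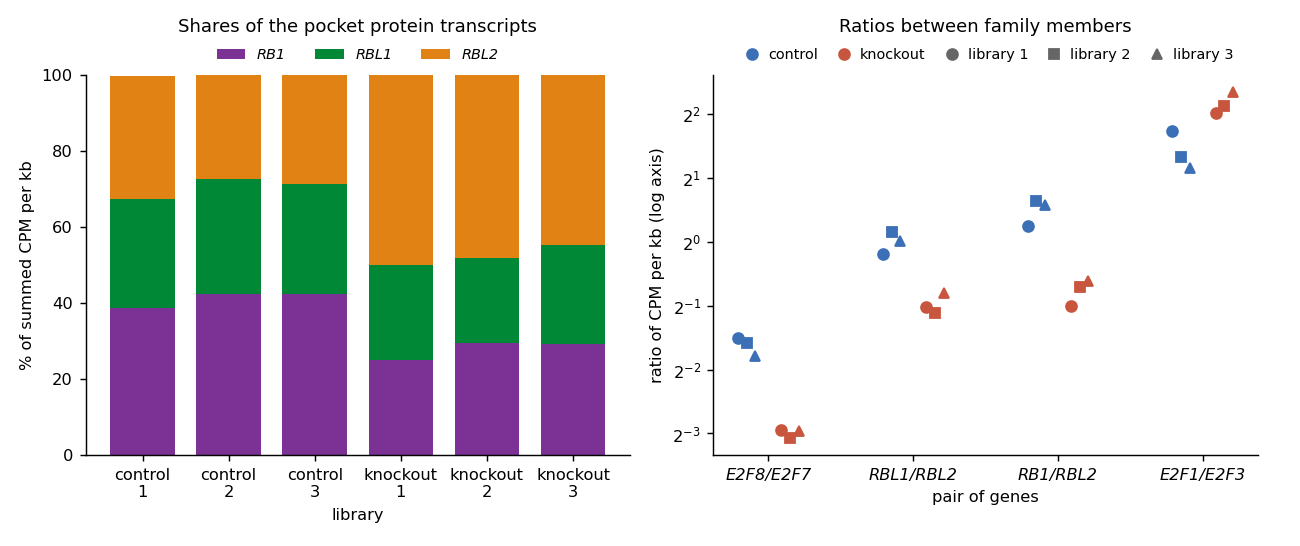
Left, shares of RB1, RBL1 and RBL2 in their summed CPM per kb of canonical transcript in each library. Right, ratios of CPM per kb between pairs of family members on a log2 axis, 1 point per library. Control and knockout libraries do not overlap in any of the 4 pairs, and E2F8/E2F7 shows the widest gap. The share of other gene pairs without overlap was not computed.

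Both CDK inhibitors fell, by amounts that changed little between the ways of scaling. CDKN1B (chromosome 12, 12685498 to 12722369, plus strand), whose product p27 holds CDK2 complexes inactive, had 35.0, 35.6 and 37.2 CPM in control and 20.6, 24 and 20.6 CPM in knockout libraries. Spread within each group was small, and the log2 fold change was -0.73 (SE 0.11; edgeR adjusted p = 5.03e-04), 60.4% of control. With the offset it was -0.75 (adjusted p = 2.97e-05), and over 17 alternatives it ran from -0.90 to -0.69. CDKN2C (chromosome 1, 50960745 to 50974634, plus strand), whose product p18 binds CDK4 and CDK6, had 66.9, 62.3 and 64.0 CPM in control and 50.2, 48.1 and 41.9 CPM in knockout libraries. The groups did not overlap, and CDKN2C lay at -0.46 on the log2 scale (SE 0.10; edgeR adjusted p = 0.00423), or at -0.57 with the offset (adjusted p = 0.00113). Both were called in all 17 alternatives.

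**Figure D3:**
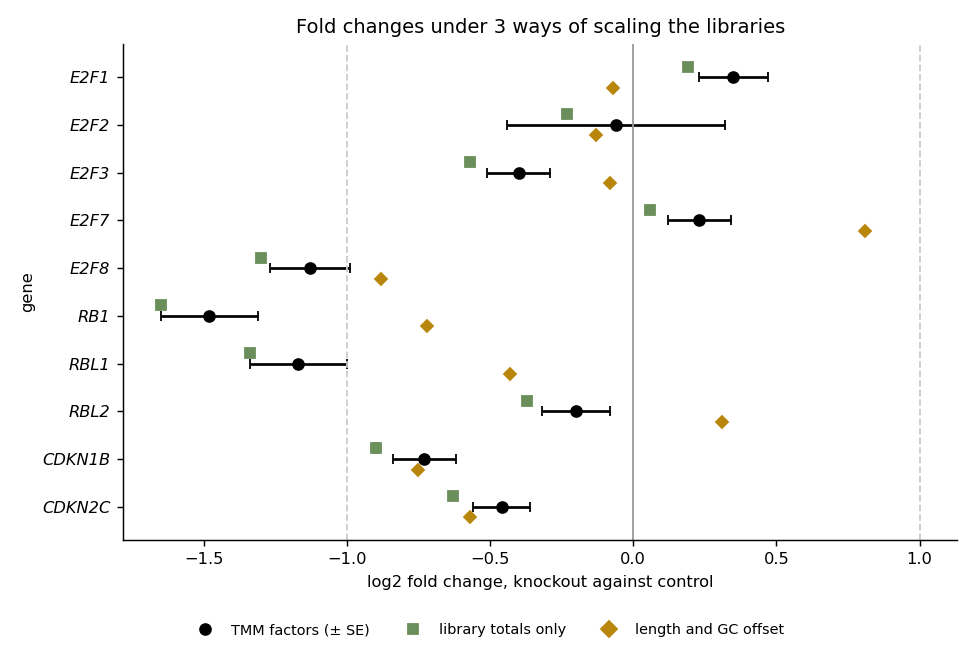
Log2 fold change of knockout against control for the 10 genes with TMM factors (circles, ± SE), library totals only (squares) and the length and GC offset (diamonds); dashed lines mark 2-fold. CDKN1B and CDKN2C lie lower under all 3, RB1, RBL1 and E2F8 lie lower by different amounts, and E2F1 and RBL2 change side with the offset.

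Levels were compared between genes per kilobase of canonical transcript. In control cells CDKN2C was the most abundant transcript (64.7 ± 2.33 CPM per kb; SD, n = 3), followed by E2F1 (22.3 ± 3.04), CDKN1B (14.9 ± 0.46), E2F7 (12.7 ± 1.20), RB1 (11.1 ± 2.35), E2F3 (8.38 ± 0.63), RBL1 (7.84 ± 1.41), RBL2 (7.81 ± 0.71), E2F8 (4.10 ± 0.15) and E2F2 (0.11 ± 0.030). Neighbours from E2F7 to RBL2 in this order overlapped between libraries and cannot be ranked. In knockout cells CDKN2C (47.0 ± 4.35), E2F1 (28.5 ± 1.72) and E2F7 (14.8 ± 1.22) led without overlap, CDKN1B was at 9.0 ± 0.81, RB1 had come down to 3.99 ± 0.38 and RBL1 to 3.48 ± 0.54, and E2F8 to 1.87 ± 0.22. The place of both inhibitors depends on the length used. Over all annotated exons CDKN2C was at 21.3 ± 0.77 CPM per kb in control cells, overlapping E2F1 (22.3 ± 3.04), and CDKN1B at 3.88 ± 0.12, below RBL2 (4.67 ± 0.43). On that length E2F1 led in knockout cells (28.5 ± 1.72), CDKN2C (15.5 ± 1.43) overlapped E2F7 (13.5 ± 1.11), and CDKN1B was at 2.35 ± 0.21, below RB1 (2.95 ± 0.28).

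Outside these 10 genes, 139 genes of 8 pathway lists were examined, of which 134 were tested, 16 rose and 63 fell. The share called, 79 of 134, was near the background of 59.7% of all tested genes. By direction 28.9% of all tested genes were higher and 30.8% lower, which is the background for each list below. With the offset these shares were 30.9% and 28.4%. Of 5 tested other E2F and DP factors 1 rose and 1 fell. E2F4, the partner of RBL1 and RBL2 in repression, rose from 74.0 ± 4.37 to 168 ± 11.3 CPM (SD, n = 3; log2 fold change 1.19, edgeR adjusted p = 2.63e-05, and 0.72 with the offset). Of the summed CPM per kb of E2F4 and the 5 E2F genes above, E2F4 took 42.4 ± 0.90% in control and 60.7 ± 1.65% in knockout cells, and E2F8 4.97 ± 0.28% and 1.43 ± 0.22% (SD, n = 3). These shares were computed without the offset, with which the log2 fold change of E2F7 (0.81) lay above that of E2F4 (0.72). TFDP2, a DP subunit that E2F factors other than E2F7 and E2F8 need to bind DNA, fell 2.26-fold (edgeR adjusted p = 5.79e-05). Its log2 fold change was -1.18, and -0.57 with the offset (adjusted p = 0.0309). The paralog TFDP1 had a log2 fold change of -0.10 (adjusted p = 0.323). E2F5 (0.38, adjusted p = 0.111) and E2F6 (0.17, adjusted p = 0.283) did not pass, and TFDP3 had 0 reads in all 6 libraries. E2F5 passed without knockout library 3 (0.54, adjusted p = 0.0334) and E2F6 with the offset (0.38, adjusted p = 0.00735).

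Among 11 tested G1 cyclins, kinases and their phosphatase, 2 rose and 5 fell (median log2 fold change -0.35). CDK6, a cyclin D partner, fell 3.20-fold, CDK2 fell 1.83-fold, and the E-type cyclins CCNE1 and CCNE2 fell 1.97-fold and 2.01-fold, all called in every one of the 17 alternatives. CDK6 had 2737, 4674 and 4845 reads in control and 1329, 792 and 1780 in knockout libraries, and its log2 fold change of -1.68 was -0.67 with the offset. The log2 fold change of CCNE2, -1.01, was -0.44 with the offset. The D-type cyclin CCND1 and CDK4 rose 1.23-fold and 1.19-fold (edgeR adjusted p = 0.0153 and 0.0359). CCND1 no longer passed when control library 2 (adjusted p = 0.0527) or knockout library 3 (0.0617) was left out, or by library totals alone (0.215). The CDK4 call was lost without control library 2 (adjusted p = 0.126) or 3 (0.122) or knockout library 3 (0.0997). It was also lost with the replicate block (adjusted p = 0.0931), with no filter (0.0988) and by library totals alone (0.441), and CDK4 lay at -0.13 with the offset (adjusted p = 0.0969). CCND3 had a log2 fold change of -0.03 (adjusted p = 0.807; -0.54 with the offset, adjusted p = 7.46e-05), and CCND2 had 1 read in 6 libraries.

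Among 6 other CDK inhibitors, 3 were tested, of which 1 rose and 1 fell. CDKN2B had 0 reads in 150998035, which allows at most 0.0199 CPM (3 counts; counting error only), and CDKN2A had 0 reads in control libraries and 1 in the knockout libraries. CDKN2D, which encodes p19, fell 2.09-fold (edgeR adjusted p = 1.86e-04; log2 fold change -1.06, and -1.66 with the offset), beside 1.38-fold for its family member CDKN2C; the difference between them was not tested. CDKN1A, the p21 gene, rose from 29.2 ± 0.76 to 45.4 ± 6.76 CPM (SD, n = 3; adjusted p = 0.00203), opposite to CDKN1B, but its log2 fold change of 0.63 was 0.18 with the offset (adjusted p = 0.166). CDKN1C had at most 5 reads in any library and was not tested. CDKN3, a phosphatase of CDK2, did not pass (-0.36, adjusted p = 0.0681), but passed as lower in 6 of the 17 alternatives, among them the replicate block (-0.38, adjusted p = 0.0452) and without knockout library 2 (-0.56, adjusted p = 2.32e-04).

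Of 13 genes of p27 turnover and transcription 0 rose and 4 fell (median -0.02). CUL1, the scaffold of the ligase that degrades p27, fell 1.57-fold, FOXO3, a transcription factor that can induce CDKN1B, fell 1.67-fold, and the kinase gene UHMK1 fell 2.00-fold. SKP2, the ligase subunit that recognises p27, fell 1.42-fold and is named here after its value was seen. UHMK1 and SKP2 lay at 0.02 and -0.03 with the offset, with which 3 of the 13 rose and 4 fell. The number higher was 2 without knockout library 1 (CDC34 and CKS1B, named after their values were seen) and 1 without control library 1 or knockout library 2; CDC34 was among those lower with the offset (-0.40, adjusted p = 3.99e-04).

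The DREAM complex joins RBL1 or RBL2, E2F4 and a DP subunit to the MuvB core, and MuvB also pairs with MYBL2 and FOXM1. Of 9 genes in this list 1 rose and 7 fell (median -0.60). The number lower was 4 when control library 2 or 3 or knockout library 1 was left out, and the number higher was 2 when knockout library 2 was. With the offset 2 were higher and 5 lower. The 2 higher were RBBP4 and DYRK1A (0.55 each, adjusted p = 0.00635 and 0.0407), which had been called lower without it (-0.28 and -0.35) and are named after their values were seen. The DNA-binding core subunit LIN54 fell 3.02-fold, the MYB family gene MYBL1 3.80-fold and FOXM1, an activator of mitotic genes, 1.88-fold. MYBL2, the MuvB partner, did not pass (log2 fold change 0.04, edgeR adjusted p = 0.766) and is named after its value was seen. Its level in control cells was 267 CPM, against 61.8 CPM for MYBL1. With the offset MYBL2 was called lower (-0.38, adjusted p = 0.00131). With the offset LIN54 lay at -0.77 and MYBL1 at -1.12 on the log2 scale, against -1.60 and -1.93 without it. LIN37 was 1.36-fold higher and passed the test (edgeR adjusted p = 0.0123), but not with the offset (-0.17, adjusted p = 0.155), by library totals alone (0.27, adjusted p = 0.0839) or when control library 3 was left out (adjusted p = 0.0505). Of 16 co-regulators of RB and E2F, 3 rose (L3MBTL2 2.36-fold, KAT5 1.99-fold, SUV39H1 1.63-fold) and 6 fell (median -0.30). With the offset 4 were higher and 5 lower, and the median was -0.05. L3MBTL2, KAT5 and SUV39H1 lay at 0.98, 0.52 and 0.34 on the log2 scale with it, against 1.24, 0.99 and 0.71. The RB-binding genes ARID4A, ARID4B and KDM5A fell 4.96-fold, 2.84-fold and 2.16-fold, and by 1.41, 0.69 and 0.29 on the log2 scale with the offset.

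Targets of the network were examined by phase. Of 51 G1/S targets of activating E2F, the described genes left out, 7 rose and 19 fell (median -0.11). The background was 28.9% of all tested genes higher and 30.8% lower. With the offset 9 of these targets rose and 21 fell (median -0.13), against 30.9% and 28.4%. Among them FEN1, a replication nuclease, rose 1.75-fold, the licensing factor gene CDT1 1.84-fold and GINS3 1.32-fold, while the histone chaperone gene NASP fell 2.57-fold and EZH2, a histone methyltransferase, 1.84-fold. With the offset FEN1, CDT1 and GINS3 lay at 0.44, 0.41 and 0.25 on the log2 scale, against 0.81, 0.88 and 0.40 without it. NASP and EZH2 lay at -1.28 and -0.80, against -1.36 and -0.88. Without knockout library 2 the number of these targets higher was 11. By library totals alone 2 rose and 24 fell, and GINS3 was no longer called (adjusted p = 0.0863). Of 30 G2/M targets of DREAM 1 rose and 23 fell (median -1.11; -0.84 with the offset), with 2 higher without knockout library 2 or 3. Those that fell included the spindle checkpoint kinase gene BUB1 by 3.89-fold, NUSAP1 by 3.01-fold and CCNA2, which encodes cyclin A2, by 2.45-fold. BIRC5 rose 1.28-fold, but lay at 0.11 with the offset (adjusted p = 0.137) and was not called by library totals alone (0.19, adjusted p = 0.0946). With the offset 1 of the 30 was higher and 27 were lower. The 1 higher was CKS2 (0.36, adjusted p = 0.00294), named after its value was seen.

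**Figure D4:**
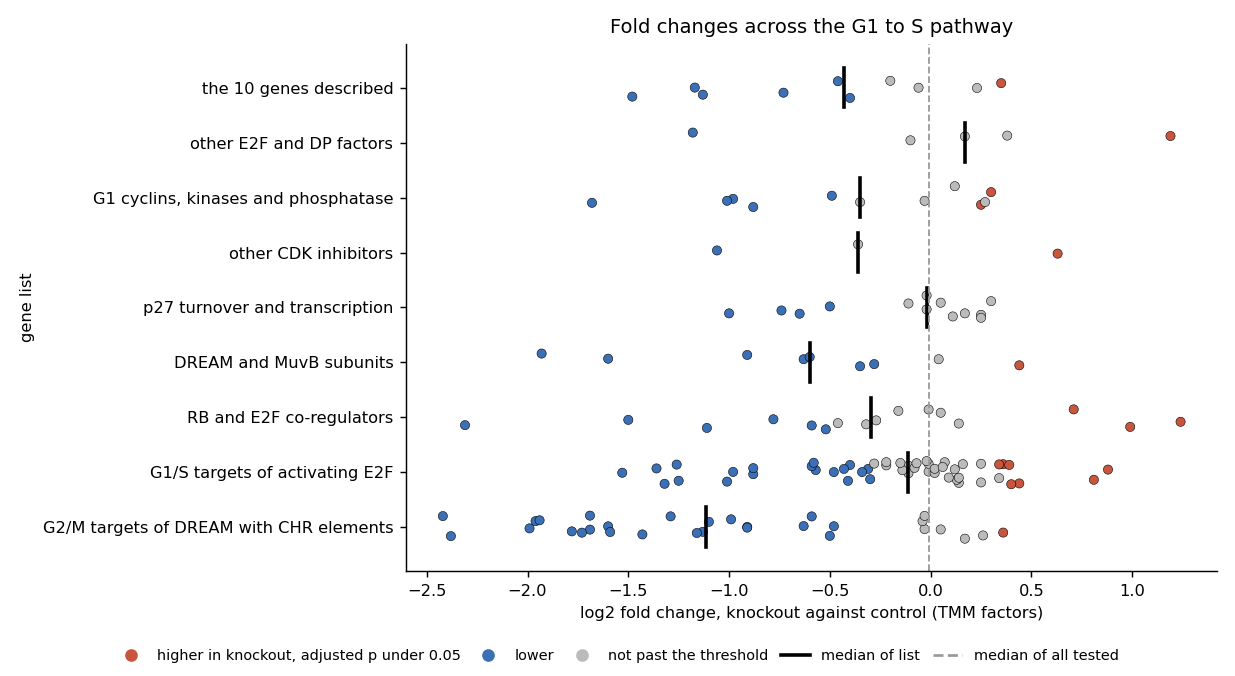
Log2 fold change of knockout against control for the 10 genes and 8 pathway lists, 1 point per tested gene, coloured by call at an adjusted p of 0.05; bars mark list medians and the dashed line the median of all tested genes (-0.01). The G2/M list lies furthest to the lower side (median -1.11), and E2F4 stands apart on the higher side of its list.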

How the data were processed

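Per the labels, the authors aligned filtered reads to GRCh38 using HISAT2 (2.0.4, per the submitters' processing notes) and obtained gene counts from HTSeq. For HTSeq, the sources used here do not give a version, strand setting or annotation. The deposited values are raw counts per gene symbol, 1 column per library, matched to samples by title. Knockout was compared with control using the quasi-likelihood test of edgeR 4.0.16 (with limma 3.58.1 in R 4.3.3), TMM factors, filterByExpr and group as the only term. The prior count was 0.125. Benjamini-Hochberg adjustment covered 14398 genes. Each SE came from the fold change and its F statistic. The scripts were tested on simulated data.

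The offset removes, per library, lowess trends (span 0.3) along canonical transcript length and GC content (GENCODE on GRCh38), known for 92.4% of tested genes. It would also remove any real group difference that runs with length or GC content. Other alternatives were DESeq2 1.42.0, limma-voom, 3 other scalings, 2 other filters, robust dispersions, a replicate block, a test against 2-fold and the omission of each library in turn. The genes, lists, offset and tests were chosen with earlier results of these data known. From each list the text names up to 3 genes per direction with the smallest p, and the cyclin, CDK, inhibitor, E2F and DP genes; 1 gene that this rule names is not reported here. Libraries of a group differed by more than sampling noise (chi-square per degree of freedom 2.95 to 68.1).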

Additional observations from a re-analysis of the deposited data

How the results depend on the processing

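E2F8, RB1, RBL1, CDKN1B and CDKN2C were called lower in all 17 alternatives other than the test against a 2-fold change itself. Under the offset E2F1 lay at -0.07, with and without the replicate block; RBL2 lay at 0.31 with the offset and at 0.30 with block and offset. E2F2 ran from -0.23 to 0.20 when each library was left out (0.20 without control library 3, 0.19 without knockout library 2) and had no value under the stricter filter. Of the 10 genes, the number higher was 1, but 0 by library totals alone and in the test against 2-fold, 2 with the offset (also with the block), and 0 to 2 when each library was left out in turn. The number lower was 6, with 5 to 6 when a library was left out, and 1 in the test against 2-fold. That test left 578 higher and 776 lower of all genes, and 0 higher and 18 lower of the other pathway genes, of which 7 were higher by library totals alone. The causes were not tested beyond the construction of each alternative.

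Replicate numbers are shared between the groups, but deviations of same-numbered libraries did not correlate (r = 0.020, -0.044 and 0.011), and not every library correlated best with its own number. With the replicate block 3895 genes were higher and 4413 lower, against 4158 and 4435, and of the 10 genes 1 was higher and 6 lower. Depth limits E2F2, at 8 to 19 reads per library.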
